A study of Homo sapiens with 4 samples.

Results

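FGF21, GDF15, INHBE, ADM2, STC1 and STC2 encode secreted proteins, among them hormones that stressed cells release. They were taken as every probe of the deposited value table whose gene symbol in the platform's probe table is one of these 6 names. That gave 9 probes of 28264, namely 1 each for FGF21, GDF15, INHBE and STC1, 2 for STC2 and 3 for ADM2. RNA came from QGP-1, an established cell line from a human pancreatic neuroendocrine tumour, hybridised as single-colour Cy5 microarrays. In the PSC medium group (2 arrays) cells received culture medium that pancreatic stellate cells, mesenchymal cells that deposit matrix, had conditioned. In the mock group (2 arrays) they were not, and both groups were kept for 24 h at 0.1% fetal bovine serum in RPMI-1640 after growth at 10% serum. No transgene, mutation or added agent is named for either group. The labels do not say whether the mock medium had itself been kept on culture plates, or whether paired arrays had separate cultures behind them. The p-values therefore measure the spread between these arrays, which may be technical.

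FGF21 is an endocrine fibroblast growth factor that signals through FGF receptors together with the co-receptor beta-Klotho, and GDF15 is a distant member of the TGF-beta superfamily that signals through GFRAL and RET. INHBE is the beta E subunit of activins and inhibins, and ADM2 is a peptide of the calcitonin family that acts on CALCRL with RAMP proteins. STC1 and STC2 are glycoprotein hormones first known from fish, and in mammals they inhibit pappalysins, the proteases that cut IGF-binding proteins. FGF21, GDF15, INHBE, ADM2 and STC2 are known targets of the integrated stress response, in which phosphorylation of eIF2alpha raises translation of the transcription factor ATF4. ATF4, alone or with C/EBP partners, binds a composite promoter element in many of its targets.

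The promoter windows of FGF21 and GDF15 are shown because both genes belong to that response and differ in which of 3 searched motifs they hold. Each window is the 250 bases before the transcription start site, from RefSeq on GRCh38.p14, plus strand, with motif matches in capitals. FGF21 lies at chr19:48755274-48755523 and GDF15 at chr19:18385908-18386157.
FGF21: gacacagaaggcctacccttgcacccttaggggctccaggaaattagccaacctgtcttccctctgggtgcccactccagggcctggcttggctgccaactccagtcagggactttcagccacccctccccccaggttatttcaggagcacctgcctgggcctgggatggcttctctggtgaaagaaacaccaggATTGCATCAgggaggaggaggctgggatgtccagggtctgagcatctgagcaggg
GDF15: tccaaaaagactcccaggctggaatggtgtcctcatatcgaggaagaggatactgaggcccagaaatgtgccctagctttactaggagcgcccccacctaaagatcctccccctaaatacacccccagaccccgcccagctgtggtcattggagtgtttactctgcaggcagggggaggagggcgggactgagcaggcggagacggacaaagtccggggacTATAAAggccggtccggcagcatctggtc
The search covered 300 bases, 250 before and 50 after the start site, on both strands, and found promoters for 4 of the 6 genes (FGF21, GDF15, ADM2 and STC2). The motifs were TGATGNAAN, the C/EBP-ATF response element, ACGTG, the core of the hypoxia response element, and TATAAA, the TATA box. FGF21 held 1 match to the first, on the minus strand, beginning 55 bases before the start site. That element was present in 3.61% of 35116 promoters of the same length. GDF15 held 1 TATA box, beginning 29 bases before the start site, a motif found in 11.5% of the promoters. The hypoxia core was found in 21.4% of all promoters and in none of the 4, and the ADM2 and STC2 windows held none of the 3 motifs. These are matches of letters and not measured sites.

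The authors deposited probe intensities on a linear scale after background subtraction, and these were quantile normalized, given a floor of 1 and put on the log2 scale. A probe was called at a Benjamini-Hochberg adjusted p under 0.05 over all 28264 probes in limma, a linear model with moderated variances. By this rule 109 probes were higher and 70 lower with PSC medium, and the split turned to 27 higher and 145 lower without normalization and to 17 higher and 89 lower with median scaling. Median intensity was 800 and 822 on the PSC medium arrays, against 662 and 829 on the mock arrays. The arrays' lower quartile of intensity lay between 169 and 208. In bulk RNA, fewer cells with a transcript and less transcript per cell cannot be told apart. Of the 8 neuroendocrine markers measured, the brightest, SST, CHGA, CHGB and SCG2, had mean normalized log2 levels between 16.14 and 18.32 in both groups. ENO2, INSM1 and SCGN lay between 11.84 and 13.84. SYP was at 9.44 with PSC medium and 9.60 in mock cells, near the median probe level of 9.60. In limma 0 of 8 markers passed (0 also at an unadjusted p under 0.05).

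Of the 9 probes, INHBE and STC1 rose with PSC medium, by 3.79-fold and 3.61-fold. FGF21, GDF15 and both STC2 probes were 1.95-fold to 2.81-fold higher on average and did not pass the test, and the 3 ADM2 probes lay between 0.902-fold and 1.19-fold. The 2 calls are set against 0.386% of all probes called higher. For 6 of the 9 probes, covering 5 of the 6 genes, both PSC medium arrays lay above both mock arrays, as they did for 25.4% of all probes. The members and their grouping were chosen with earlier results of these data known.

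**Figure D1:**
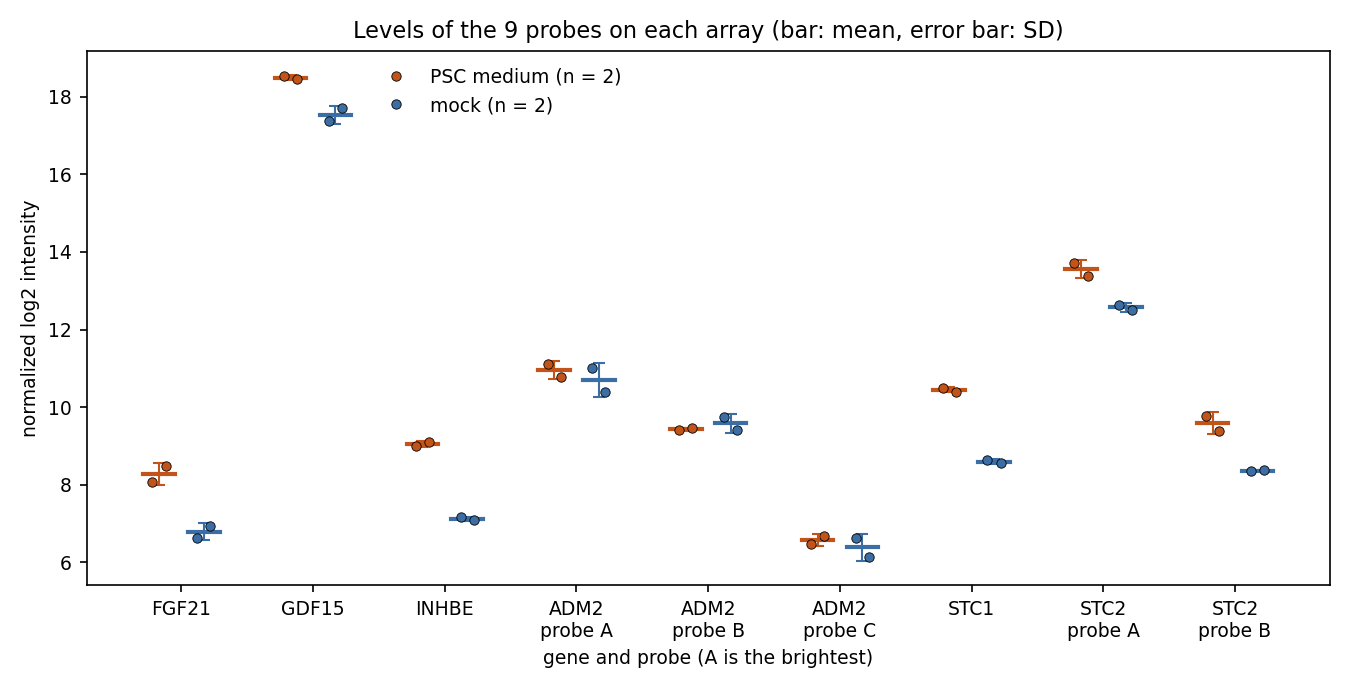
Normalized log2 intensity (vertical axis) of each of the 9 probes on each array, PSC medium left of mock, with points for the 2 arrays of a group, a bar for the mean and an error bar for the SD. The groups are apart for FGF21, GDF15, INHBE, STC1 and both STC2 probes and overlap for the 3 ADM2 probes.

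INHBE, the activin beta E subunit, gave intensities of 512 and 589 on the PSC medium arrays, against 132 and 141 on the mock arrays. The lower PSC medium array was 3.63 times the higher mock array, and the arrays of each group lay close together. On the normalized log2 scale the level was 9.04 ± 0.08 with PSC medium and 7.12 ± 0.05 in mock cells (SD, n = 2 each), a difference of 1.92 ± 0.15 (SE; 95% interval 1.54 to 2.30, limma adjusted p = 0.0325). Both mock arrays held the INHBE probe under their lower quartile of intensity, so its mock level rests on dim signal. INHBE ranked 29th of 28264 probes by p.

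FGF21, the metabolic hormone, gave intensities of 261 and 388 with PSC medium, against 99 and 130 in mock cells. Every PSC medium value was at least 2.01 times every mock value, but the arrays within each group were spread more widely than those of INHBE. The normalized log2 level was 8.28 ± 0.28 with PSC medium and 6.79 ± 0.22 in mock cells (SD, n = 2 each), a difference of 1.49 ± 0.21 (SE; 95% interval 0.95 to 2.03). Its limma adjusted p was 0.0638 over all probes, of which 0.386% were called higher. It was 0.0377 when the fit held 1 probe a gene, the brightest (1.17% of genes then called higher). With probes that had a floor value left out it was 0.0252 (1.82% of probes then called higher). Both mock arrays held this probe under their lower quartile too. With 50 added to the intensities before the log, which damps dim probes, the FGF21 difference was 1.17 and its adjusted p 0.00562. That setting called 1301 probes higher over the whole table, against 109 without the constant.

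GDF15, the stress hormone that reduces appetite through the hindbrain, gave intensities of 410076 and 365953 with PSC medium, against 144623 and 226426 in mock cells. The groups did not overlap, and the mock arrays differed more from each other than the PSC medium arrays did. The normalized log2 level was 18.49 ± 0.07 with PSC medium and 17.53 ± 0.24 in mock cells (SD, n = 2 each), a difference of 0.96 ± 0.18 (SE; 95% interval 0.51 to 1.42, limma adjusted p = 0.0816). Its probe stood at the 99.9th percentile of brightness among the probes of the table, by its mean over the 4 arrays. Without mock replicate 1, the dimmer mock array for this probe, the difference was 0.78, and without mock replicate 2 it was 1.15.

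ADM2 had 3 probes, lettered from the brightest. Probe A gave intensities of 2319 and 1801 with PSC medium, against 1751 and 1456 in mock cells. Probe B gave 694 and 741 with PSC medium, against 729 and 719 in mock cells. Probe C, under the lower quartile of intensity on all 4 arrays, gave 73 and 113 with PSC medium, against 99 and 75 in mock cells. After normalization the groups overlapped for all 3, and the log2 differences were 0.25 ± 0.26, -0.15 ± 0.18 and 0.18 ± 0.22 (SE) for A, B and C. The 95% intervals were -0.41 to 0.90, -0.60 to 0.30 and -0.38 to 0.74, so that probe A leaves room for 1.87-fold higher and for 0.752-fold. The limma adjusted p lay between 0.627 and 0.673. The sign of each probe depended on 1 mock array. Without mock replicate 1 the differences were 0.55, 0.02 and 0.48 for A, B and C, and without mock replicate 2 they were -0.06, -0.31 and -0.08. Probe C also turned to -0.05 with median scaling.

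STC1, the first of the stanniocalcins, gave intensities of 1488 and 1401 with PSC medium, against 345 and 394 in mock cells. Every PSC medium value was at least 3.56 times every mock value, and the spread within each group was small. The normalized log2 level was 10.45 ± 0.07 with PSC medium and 8.60 ± 0.06 in mock cells (SD, n = 2 each), a difference of 1.85 ± 0.15 (SE; 95% interval 1.47 to 2.23, limma adjusted p = 0.0325). All 4 arrays held this probe above their lower quartile of intensity. STC1 ranked 37th of 28264 probes by p.

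STC2 had 2 probes. Probe A gave intensities of 14108 and 10768 with PSC medium, against 5495 and 6422 in mock cells. Probe B gave 908 and 714 with PSC medium, against 286 and 342 in mock cells. The groups did not overlap for either probe, and PSC medium replicate 1 was the highest array for both. The log2 difference was 0.99 ± 0.18 for probe A (SE; 95% interval 0.52 to 1.46, limma adjusted p = 0.0809) and 1.22 ± 0.19 for probe B (95% interval 0.75 to 1.70, adjusted p = 0.0671). The intervals of these probes of 1 transcript overlap over most of their length. Without PSC medium replicate 1 the differences were 0.82 for probe A and 1.01 for probe B, and without PSC medium replicate 2 they were 1.15 and 1.44. Whether STC1 and STC2, or any other pair of members, differ in the size of their change was not tested.

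**Figure D2:**
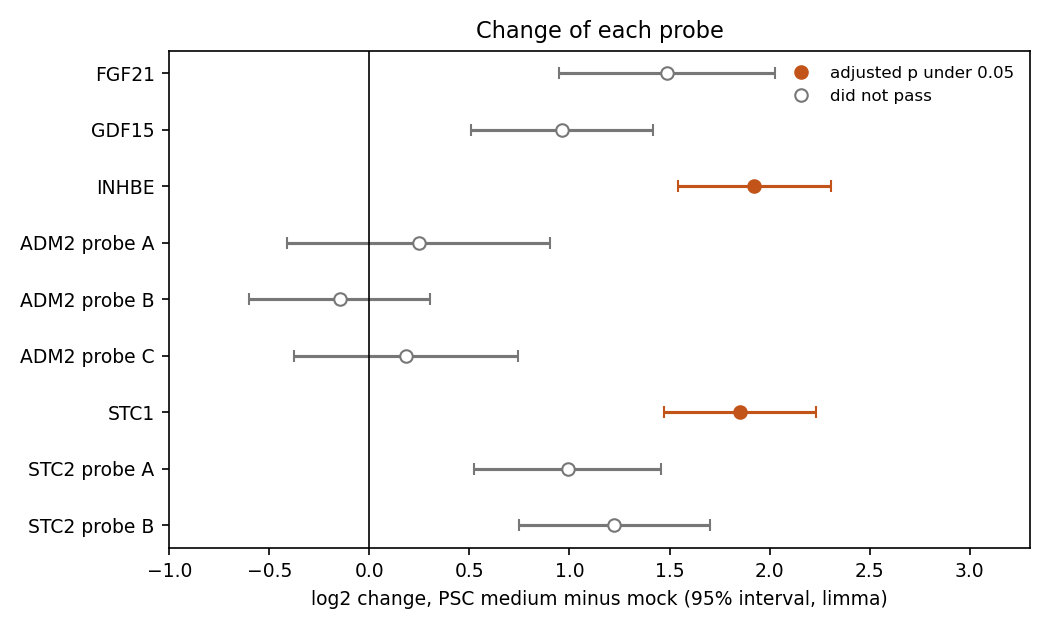
Log2 change, PSC medium minus mock (horizontal axis), of each of the 9 probes with its 95% interval from limma, filled where the adjusted p is under 0.05. INHBE at 1.92 and STC1 at 1.85 are filled, and the intervals of the 3 ADM2 probes span 0.

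The direction of the 6 probes of FGF21, GDF15, INHBE, STC1 and STC2 was positive under every alternative that could be run for them, with changes between 0.78 and 2.01 on the log2 scale. Their calls were less steady. With median scaling INHBE and STC1 had adjusted p of 0.0576 and 0.0524, and with any 1 of the 4 arrays left out, which leaves 1 residual degree of freedom, no member probe passed (INHBE adjusted p 0.228 to 0.364). Without the 339 probes that reached the floor on any array, an alternative added after seeing the data, all 6 passed, with adjusted p from 0.00995 to 0.0451, against 1.82% of the remaining 27925 probes called higher.

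**Figure D3:**
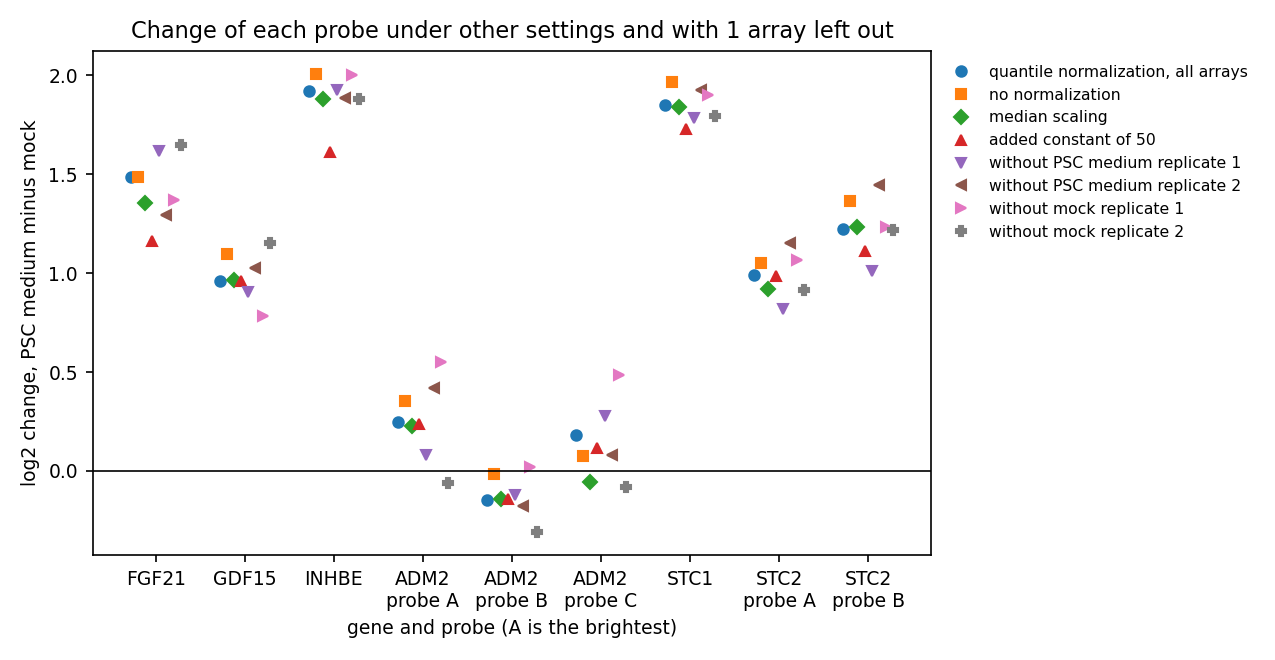
Log2 change, PSC medium minus mock (vertical axis), of each probe with quantile normalization on all arrays, under 3 other scalings or constants, and with each array left out in turn. FGF21, GDF15, INHBE, STC1 and STC2 stay above 0 throughout, between 0.78 and 2.01, and each ADM2 probe has points on both sides of 0.

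Among 10 close relatives of the members, 2 rose and 0 fell (median log2 change 0.11, against -0.01 over all 19090 genes, each given by its brightest probe, of which 0.393% were called higher and 0.262% lower). INHBA, the beta A subunit that forms activin A, rose by 2.73 ± 0.16 to 12.63 ± 0.03 with PSC medium, against 9.90 ± 0.17 in mock cells (limma adjusted p = 0.0295). Its second probe, dimmer at 7.18 with PSC medium and 5.16 in mock cells, had a difference of 2.02 ± 0.35 (SE; adjusted p = 0.0775) and did not pass. CALCB, a calcitonin gene-related peptide and so a relative of ADM2, rose by 1.49 ± 0.17 (adjusted p = 0.0467). INHBB, the beta B subunit, had -0.93 ± 0.17 (adjusted p = 0.0779). ADM, adrenomedullin itself, had 0.55 ± 0.18 (adjusted p = 0.178), and the other endocrine growth factors FGF19 and FGF23 had 0.11 and -0.19. Of the other subunit genes, INHBC, for beta C, had 0.61 ± 0.74 with overlapping groups (adjusted p = 0.674), and INHA, for the alpha subunit, had -0.30.

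Of 19 receptor and co-receptor genes 1 was called higher and 1 lower (median log2 change -0.10), against 0.393% and 0.262% of all genes. Unadjusted p was below 0.05 for 2 higher and 5 lower ones, against 9.33% and 12.1% of all genes. Both calls by adjusted p rest on the faintest probes of the arrays. GFRAL, the GDF15 receptor, had intensities of -3 and 10 with PSC medium, against 17 and -2 in mock cells. These values overlap, and the mock arrays were at the floor after normalization, so no fold is given. KL, which encodes alpha-Klotho, had intensities of -13 and 7 with PSC medium, against 41 and 34 in mock cells (adjusted p = 0.0408). With the probes that had a floor value left out, GFRAL among them, 0 receptor genes were called higher and 2 lower. In that fit 1.82% of all remaining probes were called higher. KLB, the FGF21 co-receptor beta-Klotho, had normalized log2 levels of 7.48 ± 0.09 with PSC medium and 7.54 ± 0.10 in mock cells (SD, n = 2 each). Its intensities, 174 and 189 with PSC medium and 177 and 186 in mock cells, lay near the arrays' lower quartiles, so these levels rest on dim signal. The other KLB probe, dimmer still, had a difference of -0.20 (adjusted p = 0.484). RET, the signalling partner of GFRAL, had 12.92 ± 0.23 with PSC medium and 12.79 ± 0.30 in mock cells, and FGFR1 had 13.79 ± 0.27 with PSC medium and 13.84 ± 0.14 in mock cells. The second probe of RET had a difference of -0.58 ± 0.15 (SE; adjusted p = 0.126), with the opposite sign and both PSC medium arrays below both mock arrays, and that of FGFR1 had -0.31 (adjusted p = 0.366). BMPR2, a type II receptor of the TGF-beta superfamily, had a difference of -0.91 ± 0.17 (adjusted p = 0.0852) on its brighter probe and of -0.10 on the other. FGFR2 had -0.73 ± 0.16 (adjusted p = 0.0982).

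Of 15 processing enzymes, binding proteins and IGF-axis genes, 0 rose and 1 fell (median log2 change 0.15), against 0.393% and 0.262% of all genes. Unadjusted p was below 0.05 for 4 higher and 2 lower ones, against 9.33% and 12.1% of all genes. FST, follistatin, which binds activins, fell by 2.20 ± 0.18 (SE; limma adjusted p = 0.0342), to a level of 15.45 ± 0.02 with PSC medium, against 17.66 ± 0.26 in mock cells, and its second probe had -2.84 ± 0.22 (adjusted p = 0.0325). The growth factor gene IGF2 had 1.39 ± 0.17 (adjusted p = 0.0519), and IGFBP5, whose protein is cut by pappalysins, had 1.12 ± 0.18 (adjusted p = 0.0673) on its brighter probe and 0.09 on the other. PAPPA2, a pappalysin that stanniocalcins inhibit, had 0.75 ± 0.15 (adjusted p = 0.0874) on its brighter probe and -0.12 on the other. PAPPA, the other pappalysin, had 0.01 ± 0.20 on its brighter probe and -0.78 ± 0.60 (adjusted p = 0.496) on the other, with overlapping groups. IGFBP4, its best known substrate, had 0.55 ± 0.19 (adjusted p = 0.181).

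Among 18 regulators of the integrated stress response and the unfolded protein response, 1 rose and 0 fell, against 0.393% and 0.262% of all genes. Their median log2 change was 0.49, but 0.32 without mock replicate 1 and 0.26 with a gene's probes averaged. Unadjusted p was below 0.05 for 9 higher and 0 lower ones, against 9.33% of all genes higher and 12.1% lower by that measure. For 11 of 18 both PSC medium arrays lay above both mock arrays, against 24.5% of all genes. ATF3, a stress-induced bZIP factor, rose by 2.17 ± 0.19 (limma adjusted p = 0.0342). DDIT3, the factor CHOP, had 1.69 ± 0.21 (adjusted p = 0.0539), TRIB3, a pseudokinase that binds ATF4, had 1.06 ± 0.15 (adjusted p = 0.0604) on its brighter probe and 2.09 ± 0.23 (adjusted p = 0.0465) on the other, which passed, and ATF5 had 1.25 ± 0.19 (adjusted p = 0.0666). ATF4 itself, whose control is largely at translation, had 0.38 ± 0.20 on its brighter probe and 0.09 ± 0.15 on the other. The genes of the 4 eIF2alpha kinases (EIF2AK1, EIF2AK2, EIF2AK3 and EIF2AK4) had differences between -0.16 and -0.03 on their brightest probes.

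Of 31 other ATF4 target genes, none of them secreted hormones, 4 rose and 0 fell, against 0.393% and 0.262% of all genes. Their median log2 change was 0.79. Of the 31, 23 were higher and 2 lower with unadjusted p below 0.05, against 9.33% and 12.1% of all genes. The 2 lower ones, named after their values were seen, were SLC7A11 and KLHL24. SLC7A11 had -0.90 ± 0.16 (SE; limma adjusted p = 0.0802) on its brighter probe and 0.22 on the other. KLHL24 had -0.68 ± 0.16 (adjusted p = 0.106) on its brightest probe and 0.90 and 0.24 on the others. CTH, of cysteine synthesis, rose by 1.86 ± 0.15, PHGDH, of serine synthesis, by 1.61 ± 0.16, DDIT4, an mTORC1 inhibitor, by 2.15 ± 0.22, and SESN2, a leucine sensor that restrains mTORC1, by 1.39 ± 0.15 (SE; limma adjusted p 0.0325 to 0.0465). The 6 hormone and stanniocalcin genes, given by their brightest probes, had a median of 1.24. The lists share no gene, but both were chosen with results known, and no test sets them apart.

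**Figure D4:**
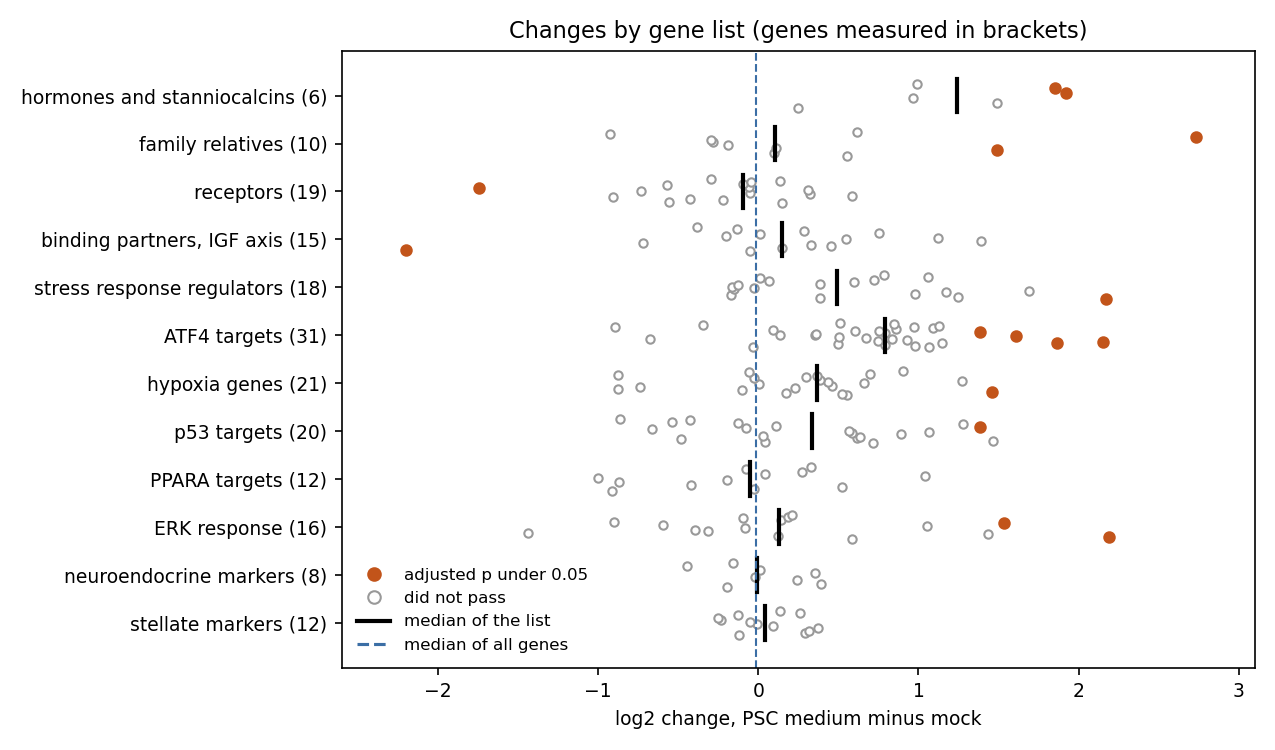
Log2 change, PSC medium minus mock (horizontal axis), of each gene's brightest probe by list, filled where limma's adjusted p is under 0.05, with each list's median as a black bar and the median of all genes as a dashed line. GFRAL and FGFR4, which had values at the floor, are not drawn, and the ATF4 targets have the highest median among the lists other than the 6 hormone and stanniocalcin genes, at 0.79.

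Other controls known for these hormones were described by lists as well. STC1 and STC2 are also known as hypoxia-inducible genes. Of 21 other such genes 1 rose and 0 fell (median log2 change 0.37), against 0.393% of all genes called higher and 0.262% lower. The called gene was BHLHE40, a transcriptional repressor of the clock, at 1.46 ± 0.16 (limma adjusted p = 0.0458). Of the 21, 6 had a negative difference. Unadjusted p was below 0.05 for 7 higher and 3 lower ones, against 9.33% and 12.1% of all genes. NDRG1 had 1.27 ± 0.17 (adjusted p = 0.0598), the angiogenic factor gene VEGFA had 0.90 ± 0.16 (adjusted p = 0.0779), and PFKFB4, a regulator of glycolysis, had -0.87 ± 0.17 (adjusted p = 0.0845).

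GDF15 is a p53 target, and of 20 other p53 targets 1 rose and 0 fell, against 0.393% and 0.262% of all genes. Their median log2 change was 0.34. The called gene, SESN2, is counted among the ATF4 targets too. BBC3, the pro-apoptotic PUMA, had 1.46 ± 0.19 (limma adjusted p = 0.0568), the death receptor gene TNFRSF10B had 1.28 ± 0.19 (adjusted p = 0.0647) and the growth arrest gene GADD45A had 0.89 ± 0.15 (adjusted p = 0.0755). Of the 20, 7 had a negative difference. Unadjusted p was below 0.05 for 10 higher and 3 lower ones, against 9.33% and 12.1% of all genes. The lower ones were the RNA-binding protein gene ZMAT3 at -0.87 ± 0.15 (adjusted p = 0.0764), the ribonucleotide reductase subunit gene RRM2B at -0.66 ± 0.18 (adjusted p = 0.129) and TP53INP1 at -0.54 ± 0.19 (adjusted p = 0.189). CDKN1A, the cell cycle inhibitor p21, and MDM2, the ubiquitin ligase of p53, had 0.62 ± 0.18 (adjusted p = 0.148) and 0.59 ± 0.16 (adjusted p = 0.129), and all 5 of these genes were chosen after their values were seen.

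FGF21 is a target of PPARA in liver, and of 12 genes of PPARA and fatty acid oxidation 0 passed in limma, although unadjusted p was below 0.05 for 1 higher and 3 lower ones, against 9.33% and 12.1% of all genes (median log2 change -0.05). EHHADH, of peroxisomal oxidation, was 0.499-fold (adjusted p = 0.0671), CPT2, of mitochondrial uptake, had a log2 difference of -0.87 ± 0.15 (adjusted p = 0.0776), and ACADM, a mitochondrial dehydrogenase, had -0.91 ± 0.18 (adjusted p = 0.0888). ANGPTL4 had 0.52 ± 0.15 (adjusted p = 0.139).

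FGF21 signals through ERK, and of 16 ERK response genes 2 rose and 0 fell (median log2 change 0.13). Over all genes 0.393% were called higher and 0.262% lower. Of the 16, 7 had a negative difference. Unadjusted p was below 0.05 for 5 higher and 3 lower ones, against 9.33% and 12.1% of all genes. Whether any of these changes depended on FGF21 was not tested. The phosphatase gene DUSP5 rose by 2.19 ± 0.17 (limma adjusted p = 0.0325) and PHLDA1 by 1.53 ± 0.16 (adjusted p = 0.0457). DUSP4, another phosphatase gene, had 0.58 ± 0.22 (adjusted p = 0.209) on its brighter probe and 1.83 ± 0.20 (adjusted p = 0.0465) on the other, which passed. IER3 had 1.05 ± 0.15 (adjusted p = 0.0605), and ETV1, an ETS factor, had -1.44 ± 0.20 (adjusted p = 0.0612) on its brighter probe and -0.09 on the other.

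Of 12 markers of stellate cells and fibroblasts 0 passed in limma, also at an unadjusted p under 0.05 (median log2 change 0.04). Their summed intensity was 5367 and 6077 on the PSC medium arrays, against 5011 and 4970 on the mock arrays. Most of each sum came from COL1A1, with 3635 and 3953 on the PSC medium arrays and 2986 and 2988 on the mock arrays. Of the 12 markers, 7 lay under the lower quartile of intensity on all 4 arrays. The levels of DCN were 6.20 ± 0.07 with PSC medium and 6.21 ± 0.06 in mock cells, and those of COL1A1, the 1 marker above the median level of all probes, were 11.87 ± 0.12 with PSC medium and 11.58 ± 0.26 in mock cells (SD, n = 2 each).

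For each member's brightest probe the 3 genes most alike over the 4 arrays were found, by Euclidean distance between levels centred on each probe's own mean, among genes above the median level. With 4 arrays such likeness follows mainly the size of the difference and the spread within pairs. Nearest to INHBE were GPR101, VGF and OR1I1 (distances 0.0344 to 0.0866, log2 differences 1.86 to 1.95). Nearest to STC1 were OR1I1, S100A10 and GPR101 (0.0958 to 0.171), so OR1I1 and GPR101 were near both members that passed. Nearest to FGF21 were AGR2, KLF5 and TACC2 (0.0541 to 0.113, differences 1.38 to 1.53). GDF15 was nearest to ERRFI1, GARS1 and MYC (0.0627 to 0.106), and STC2 to IDH1, NPIPB10P and FIP1L1 (0.0342 to 0.0924). ADM2 was nearest to OR2G2, TPCN2 and RAB11FIP5 (0.0883 to 0.145).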

How the data were processed

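The authors deposited linear intensities of 28264 probes on 4 arrays, whole numbers with some below 0, so a background had been subtracted. No source used here names the scanner, software or any scaling. Array medians differed by 0.325 on the log2 scale, and intensities were quantile normalized, floored at 1 and log2 transformed. A single two-sided fit over all probes, made by lmFit and eBayes of limma 3.58.1 under R 4.3.3 and checked on simulated data, gave PSC medium minus mock. The fit had 2 residual and 3.25 prior degrees of freedom, and the number of arrays limits the precision. The platform's probe table gave the gene symbols. All 25893 named probes matched RefSeq by Entrez ID, no symbol changed, and 2371 probes had none. Listed genes not analysed here numbered 10. Arrays of a pair were not copies, with 105 (PSC medium) and 121 (mock) identical values. Members, lists and the naming rule (all member probes, up to 4 genes a list by p, 3 nearest genes a member) were chosen with earlier results of these data known. Other listed genes named, such as ATF4, TP53INP1, DUSP4, the receptors and the pappalysins, were chosen after their values were seen. Figures used matplotlib 3.10.9.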

Additional observations from a re-analysis of the deposited data

How the results depend on the processing

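The 6 probes of FGF21, GDF15, INHBE, STC1 and STC2 kept a positive change in every setting that included them, and the number of calls moved widely. The limma fit called 179 probes in all, 2 of them members, and 13 genes of the other lists. Median scaling called 106, 0 and 4 (6 member probes at an unadjusted p under 0.05), and shifted the median log2 change of all probes to -0.11, against -0.01 with quantile normalization. No normalization called 172, 2 and 5, and higher calls made up 15.7%, against 16.0% with median scaling and 60.9% with quantile normalization. An added constant of 50 called 2753, 6 and 63. Keeping probes above the median level called 2637, 2 and 66, with only 3 member probes left to fit. The 2 called there were GDF15 and STC2 probe A. INHBE and STC1, the 2 called in the main fit, lay below that level and were not fitted. The brightest probe of each gene gave 409 genes, 3 members and 30 listed genes, and averaged probes gave 93, 2 and 15. A variance trend with robust priors gave 4340, 6 and 76, and a threshold of 0.1 gave 1625, 6 and 53. Leaving out the 339 probes with a floor value, chosen after seeing the data, gave 1004, 6 and 39, with 4.84 prior degrees of freedom against 3.25. With the replicate number as a block limma called 2 probes, 0 members and 0 listed genes (6 member probes at an unadjusted p under 0.05). Deviations of same-numbered arrays correlated at 0.0616 over probes. The labels do not say whether these arrays were paired, and 1 correlation from 2 pairs cannot decide it. Without any 1 array, the lowest and highest counts were 0 and 0 for probes, members and listed genes, with 3648 to 5504 probes and 6 member probes at an unadjusted p under 0.05. Signs turned only for ADM2, among the member probes: with 1 array left out, probe A ranged from -0.0599 to 0.553, probe B from -0.311 to 0.0177 and probe C from -0.0792 to 0.483, and with median scaling probe C had -0.0546. Over 14 settings the median log2 change of a list kept its sign for the ATF4 targets (0.73 to 0.88), stress regulators (0.26 to 0.63), hypoxia genes (0.26 to 0.40), p53 targets (0.21 to 0.42), relatives (0.06 to 0.33) and receptors (-0.30 to -0.07). It turned in 1 setting each for the processing and binding genes, PPARA genes and ERK genes, and in 5 each for the neuroendocrine and stellate markers.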
